A study of Mus musculus with 34 samples.

Results

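The 37 genes described here are a list of choroid plexus epithelium genes and transporters, chosen by symbol with Ttr as their marker, out of 23951 genes with a value for each mouse. This list and the other gene lists below were chosen with earlier results of these data known. The shares of all genes set beside their counts are therefore no independent test. All 37 symbols were found. They fall into the carrier protein Ttr, 8 secreted or membrane-bound regulators (Kl, Sostdc1, Igfbp2, Enpp2, F5, Wfdc2, Lbp and Col8a1), 3 receptors (Folr1, Prlr and Mfrp), 5 channels (Clic6, Kcnj13, Kcne2, Aqp1 and Trpv4), 8 transporters (Abca4, Slc4a5, Slc13a4, Slc16a8, Slc31a1, Slc2a12, Slc39a4 and Slc12a4), 2 tight junction claudins (Cldn1 and Cldn2), 4 enzymes (Steap1, Ace, Sulf1 and Rdh5), 2 transcription factors (Otx2 and Msx1) and 4 others (Calml4, Tmem72, Wdr86 and Cab39l).

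The choroid plexus is a folded epithelium that hangs into the brain ventricles, secretes cerebrospinal fluid and forms the barrier between blood and that fluid. Its cells move ions, bicarbonate, water and nutrients across both faces of the sheet through channels and solute carriers, are sealed by claudins, and secrete carrier proteins, foremost transthyretin (Ttr), which binds thyroxine. The plexus of the lateral ventricle lies next to the hippocampus but is not part of it.

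Hippocampal RNA came from 4 control mice (Hdac1f/f), 5 Hdac1 cKO mice (Hdac1f/f; Nestin-Cre), 6 5XFAD mice (Hdac1f/f; 5XFAD) and 5 compound mice (Hdac1f/f; Nestin-Cre; 5XFAD), all male, 1 library per mouse. Control and Hdac1 cKO mice were labelled 13 to 14 months old, and 5XFAD and compound mice 13 months, so the labelled ages differ between groups compared below. The sample numbers of 5XFAD and compound mice also form a later block, separate from those of control and Hdac1 cKO mice. Whether the libraries of both blocks were prepared together is not given in the sources used here. All 4 groups carried the floxed Hdac1 alleles, and Nestin-Cre removes Hdac1 in neurons and astrocytes while microglia keep it. The 5XFAD transgenes express mutant amyloid precursor protein and presenilin under the Thy1 promoter, and their mice develop amyloid plaques. A separate set holds sorted GFAP+ cortical nuclei of 3 control mice and 4 Hdac1 cKO mice of 13 months. The comparisons ask what loss of the histone deacetylase HDAC1 does to gene expression in the aged brain, with and without amyloid pathology. All values are FPKM, fragments scaled to transcript length and to the mapped fragments of the library. The hippocampal libraries hold only the 3′ ends of transcripts, so FPKM levels are compared between mice and not between genes. No fragment counts were given, so the depth behind a single value is unknown. Steps between low values placed the depth of the 20 hippocampal libraries between 0.753 and 2.35 times that of control 1, and between 7423 and 8577 genes were listed at 0 per library. Hdac1 was 5.91 to 10.7 FPKM in control, 2.36 to 3.03 in Hdac1 cKO, 6.10 to 9.64 in 5XFAD and 1.15 to 2.52 in compound mice, which matched the labels of the hippocampal libraries.

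Single mice stood apart from the rest of their groups, and this touches every result that follows. Control 1 was the lowest control mouse in 35 of the 37 genes, Hdac1 cKO 5 the highest Hdac1 cKO mouse in 30 and compound 1 the highest compound mouse in 36. Among the 5XFAD mice, 5XFAD 4 and 5XFAD 5 were each below the other 4 mice in 34 genes. For the 37 genes, the counts called, the folds of Ttr, the median fold and the number following Ttr are also given without control 1, Hdac1 cKO 5 or compound 1, and for 5XFAD mice the counts called and the fold of Ttr without 5XFAD 4 or 5XFAD 5. The other folds and slopes of single genes, the exact permutation tests, the straight-line fits, the fits with Ttr as a covariate and the counts of other gene lists use all mice. In tissue RNA, fewer epithelial cells in a sample and less RNA per cell cannot be told apart, and how much choroid plexus was collected with each hippocampus is not given in the sources used here.

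Ttr lies at chr18:20823751-20832825 on the + strand (mm9, as are the gene positions below). It measured 576, 17485, 20146 and 12903 FPKM in control mice 1 to 4, and 106, 72.4, 105, 56.5 and 1608 FPKM in Hdac1 cKO mice 1 to 5. The 6 5XFAD mice spanned 53.8 to 7892 FPKM with a median of 4306, and compound mice 1 to 5 had 13910, 160, 148, 265 and 58.9 FPKM. Across the 20 mice Ttr ranged 375-fold, from 0.00694% to 2.35% of all FPKM in a library. By group mean the order was control, 5XFAD, compound and Hdac1 cKO, and each group overlapped its neighbours in that order. Ttr was lower in Hdac1 cKO than in control mice by a log2 fold of -5.57 (SE 1.44; limma adjusted p = 0.214; two-sided exact permutation p = 0.0238). For 5XFAD against control the log2 fold was -2.35 (SE 1.84; exact permutation p = 0.257), and for compound against control it was -4.35 (SE 1.87; exact permutation p = 0.0635), both with overlapping groups and neither called. The 3 comparisons share the same 4 control mice. Without control 1, Hdac1 cKO 5 and compound 1 the log2 folds of Ttr were -7.64 in Hdac1 cKO, -3.57 in 5XFAD and -6.89 in compound mice, and the last was then called. For 5XFAD against control it was -1.72 without 5XFAD 4 and -1.42 without 5XFAD 5.

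**Figure D1:**
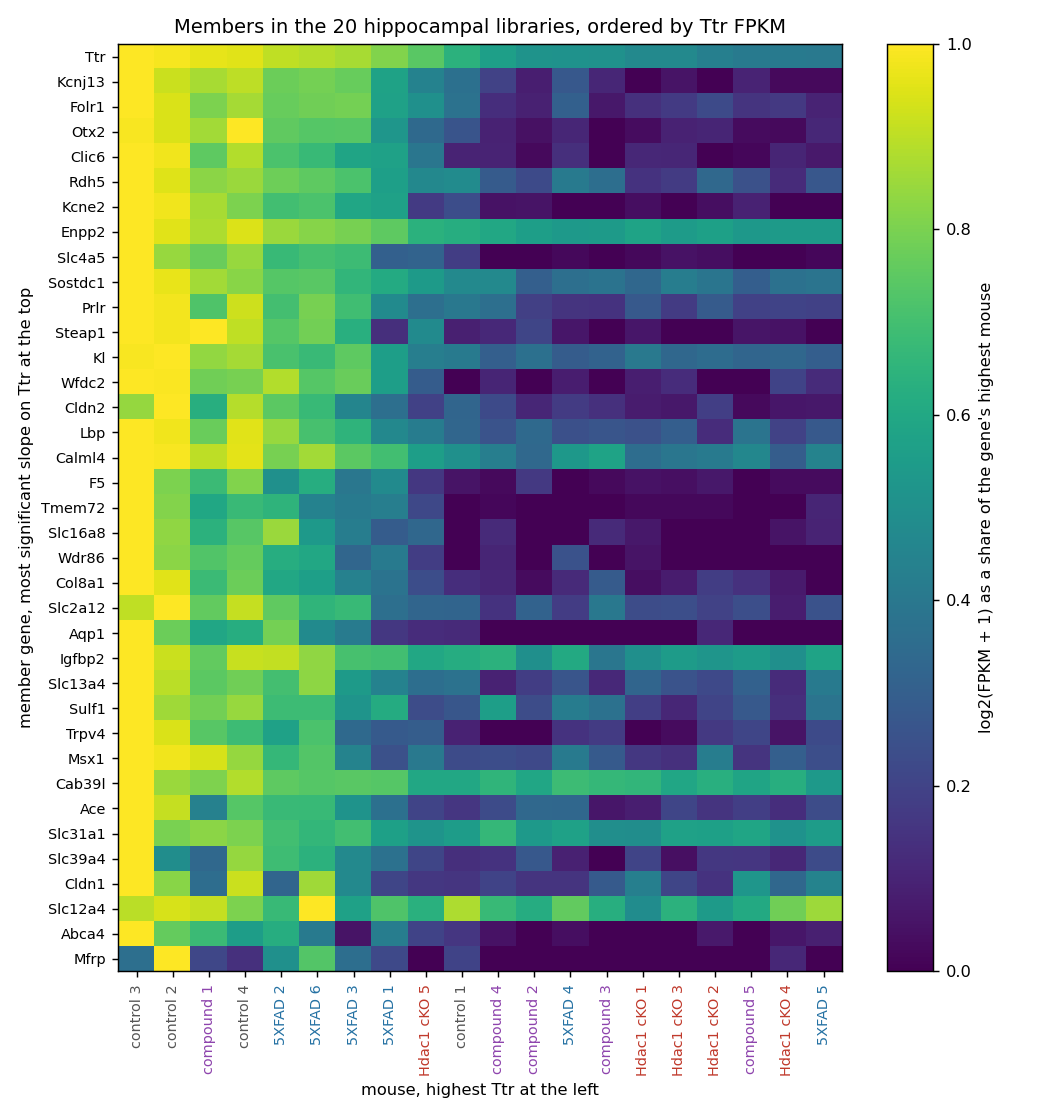
Level of the 37 genes (vertical axis) in the 20 hippocampal libraries (horizontal axis, ordered by Ttr FPKM, names coloured by group), as log2(FPKM + 1) divided by the value of each gene's highest mouse. Most genes are high in the same mice as Ttr, from control 3 (20146 FPKM of Ttr) at the left to 5XFAD 5 (53.8 FPKM) at the right, while Slc12a4, Mfrp and Cldn1 follow that order least.

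Of the 29 genes with an entry, promoter windows of 300 bases (250 before and 50 after the annotated start, RefSeq, GRCm38.p6) were read, 39 windows in all, since the genes moved together. Clic6, Enpp2, Folr1, Lbp, Slc39a4, Sostdc1, Sulf1 and Ttr had none. The windows of 4 genes are printed 5′ to 3′ on the strand of the gene. Kcnj13, at chr1:87394680-87394979 (- strand), had the steepest slope on Ttr, and Slc12a4, at chr8:105966066-105966365 (- strand), the shallowest. Kl, at chr5:150952357-150952656 (+ strand), encodes Klotho, and Otx2, at chr14:48665060-48665359 (- strand), is a homeobox factor that the choroid plexus needs to form. Capitals mark GGGCGG or CCGCCC, the core of the GC box, and TAATCC or GGATTA, the core bound by OTX factors. Otx2 had 4 windows, of which the one with a match is shown.
Kcnj13: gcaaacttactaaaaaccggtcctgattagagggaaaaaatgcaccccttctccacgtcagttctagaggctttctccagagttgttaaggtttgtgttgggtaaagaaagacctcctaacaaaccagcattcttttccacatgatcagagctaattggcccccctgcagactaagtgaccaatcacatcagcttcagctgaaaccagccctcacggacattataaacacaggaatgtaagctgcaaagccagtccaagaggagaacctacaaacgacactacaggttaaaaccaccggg
Slc12a4: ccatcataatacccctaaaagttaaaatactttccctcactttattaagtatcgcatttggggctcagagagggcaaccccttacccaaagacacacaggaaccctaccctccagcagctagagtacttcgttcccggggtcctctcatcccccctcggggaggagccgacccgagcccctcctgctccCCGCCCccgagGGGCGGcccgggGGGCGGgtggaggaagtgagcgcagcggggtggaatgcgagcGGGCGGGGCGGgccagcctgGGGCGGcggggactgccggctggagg
Kl: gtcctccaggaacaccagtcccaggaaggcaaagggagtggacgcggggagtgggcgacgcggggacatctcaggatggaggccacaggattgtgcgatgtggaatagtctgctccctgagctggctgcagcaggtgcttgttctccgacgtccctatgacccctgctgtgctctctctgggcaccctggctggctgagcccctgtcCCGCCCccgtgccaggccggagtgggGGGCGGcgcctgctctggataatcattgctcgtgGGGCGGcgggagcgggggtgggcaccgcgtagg
Otx2: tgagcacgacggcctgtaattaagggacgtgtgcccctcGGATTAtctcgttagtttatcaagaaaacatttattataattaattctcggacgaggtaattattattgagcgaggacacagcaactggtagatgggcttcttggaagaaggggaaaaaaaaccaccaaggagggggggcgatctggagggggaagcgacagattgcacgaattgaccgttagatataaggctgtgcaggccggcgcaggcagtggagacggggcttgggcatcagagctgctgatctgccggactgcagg
The Kcnj13 window held neither motif, the Kl window 3 GC box cores and the Slc12a4 window 6, some of which share bases. In the Otx2 window GGATTA began at position -211 from the transcription start. Over all windows of the list, the OTX core on either strand was in 4 of 39 (10.3%; Abca4, Ace, Mfrp and Otx2), against 7.06% of the 32851 windows of all genes. The GC box core was in 19 of 39 (48.7%), against 35.7% of all windows. Counted per gene, the OTX core was in 4 of 29 (13.8%), against 8.14% of 27025 genes. By the same count the GC box core was in 18 of 29 (62.1%), against 38.2% of all genes. A match to these letters describes the window and no more.

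In Hdac1 cKO against control mice the list was lower as a whole. Of the 37 genes, 35 averaged 0.5 FPKM or more in these 9 mice and were tested, and all 35 were called lower (1.5-fold or more and an unadjusted p under 0.05, which are also the study's limits), where 2.87% of the 14265 genes tested were called lower. Abca4 and Mfrp were below the filter. The median log2 fold over the 35 genes was -2.01, against -0.00068 over all genes, and the folds ranged from -5.57 (Ttr) to -0.65 (Slc12a4). Without control 1 and Hdac1 cKO 5 the median was -2.73. No gene of the list had a limma adjusted p under 0.05, the lowest being 0.0780 for Cldn2. In the two-sided exact permutation test of the mice, 34 of the 37 genes had p under 0.05. Among the 35 that passed the filter it was 32, where 10.9% of the 14265 genes tested had such a p in either direction. For 14 of the 35 genes the Hdac1 cKO mean was itself under 0.5 FPKM, so they passed the filter through the control mice alone (Kcne2, Aqp1, Tmem72, F5, Cldn1, Cldn2, Ace, Wdr86, Col8a1, Trpv4, Slc4a5, Slc16a8, Slc2a12 and Slc39a4). The folds and tests of these 14 genes below carry this limit.

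The groups did not overlap for 9 of the 37 genes (Kcne2, Prlr, Igfbp2, Cldn2, Sulf1, Mfrp, Rdh5, Slc13a4 and Slc12a4), with every Hdac1 cKO mouse below every control mouse, and 8 of these were among the 35 genes tested, where 2.15% of all genes tested were separated in this way. Leaving out any 1 mouse left between 33 and 35 genes called. In the other comparisons of hippocampal groups the log2 fold was also below 0 for all 35 genes tested, where it was below 0 for 51.8% of all genes in 5XFAD against control, 51.4% in compound against control and 50.1% in compound against 5XFAD mice. None of the 37 genes separated the groups in these comparisons, where 0.986%, 1.52% and 0.216% of all genes tested did so with the first group lower.

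Among the channels, Kcnj13, the inward rectifier potassium channel Kir7.1 at chr1:89282938-89291304 (- strand), measured 5.35, 96.6, 146 and 87.8 FPKM in control mice 1 to 4. It was listed at 0, 0, 0.299, 0.143 and 8.08 FPKM in Hdac1 cKO mice 1 to 5, at 0.144 to 50.9 (median 30.9) in 5XFAD mice and at 75.2, 0.518, 0.710, 1.67 and 0.659 in compound mice 1 to 5. Only Hdac1 cKO 5 reached into the control range, just above control 1. The log2 fold of Hdac1 cKO against control was -4.99 (SE 1.13; limma adjusted p = 0.184). Kcnj13 overlaps Gigyf2 on the opposite strand. In the annotation 8 genes of the list overlap another protein-coding gene (Clic6, Kcnj13, Mfrp, Prlr, Rdh5, Slc16a8, Slc2a12 and Slc31a1), and whether the counting used strand is not given in the sources used here. Kcne2, a beta subunit of potassium channels, had 1.23 to 29.0 FPKM in control and 0 to 0.787 in Hdac1 cKO mice, with no overlap, and a log2 fold of -3.46 (SE 0.75). It passed the filter through the control mice alone. Clic6, of the chloride intracellular channel family (-2.60), the osmosensitive channel Trpv4 (-1.60) and the water channel Aqp1 (-1.50) were lower as well. Aqp1 was listed at 0 in 3 of the 5 Hdac1 cKO mice and in compound mice 2 to 5, against 0.240 to 4.99 FPKM in control mice.

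Both receptors tested were lower. Folr1, the folate receptor alpha that carries folate into cerebrospinal fluid, at chr7:109006845-109019302 (- strand), measured 5.00, 87.7, 114 and 59.7 FPKM in control mice 1 to 4 and 0.923, 1.90, 1.24, 1.19 and 9.92 in Hdac1 cKO mice 1 to 5, a log2 fold of -3.81 (SE 0.99). Prlr, the prolactin receptor, had 3.50 to 42.0 FPKM in control and 0.926 to 2.97 in Hdac1 cKO mice without overlap, a log2 fold of -3.07 (SE 0.69). Mfrp, a frizzled-related membrane protein, was 0.0704 to 0.630 FPKM in control mice. It was listed at or near 0 in 4 of 5 Hdac1 cKO mice, and it shares its locus with C1qtnf5, so its values are uncertain.

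Cldn2, a tight junction protein that forms a pore for cations and water, had the lowest adjusted p of the list, although it passed the filter through the control mice alone. At chrX:136335367-136345925 (+ strand), it measured 1.29, 11.8, 7.50 and 8.62 FPKM in control mice 1 to 4 and 0.214, 0.601, 0.179, 0.172 and 0.638 in Hdac1 cKO mice 1 to 5. Every Hdac1 cKO mouse was below every control mouse, with a log2 fold of -2.38 (SE 0.43; limma adjusted p = 0.0780; two-sided exact permutation p = 0.00794, the smallest that 4 against 5 mice allow). The other claudin, Cldn1, gave 0.202, 1.66, 2.29 and 2.00 FPKM in control and 0.671, 0.189, 0.282, 0.487 and 0.215 FPKM in Hdac1 cKO mice. Here the groups overlapped, since control 1 was below 4 of the 5 Hdac1 cKO mice, and the log2 fold was -0.80 (SE 0.28).

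The 7 transporters tested had log2 folds from -2.01 to -0.65. Slc13a4, a sodium sulfate cotransporter, had 1.81 to 14.6 FPKM in control and 0.408 to 1.70 in Hdac1 cKO mice without overlap (log2 fold -2.01, SE 0.45). Slc4a5, the sodium bicarbonate cotransporter NBCe2 that takes part in fluid secretion, followed at -1.81 (SE 0.42), then the monocarboxylate transporter Slc16a8 (-1.54), the zinc importer Slc39a4 (-1.35), the glucose transporter Slc2a12 (-1.34) and the copper importer Slc31a1 (-1.06). Slc12a4, the potassium chloride cotransporter KCC1 at chr8:108467490-108489974 (- strand), measured 3.49, 4.00, 3.62 and 2.96 FPKM in control mice 1 to 4 and 1.30, 1.54, 1.99, 2.83 and 1.95 in Hdac1 cKO mice 1 to 5. Its groups did not overlap although its log2 fold of -0.65 (SE 0.17) was the smallest of the 35 genes tested. Abca4, a transporter of retinoids below the filter, had 0.131 to 1.15 FPKM in control and 0 to 0.167 in Hdac1 cKO mice.

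The 8 secreted and membrane-bound regulators were all lower, with log2 folds from -3.32 to -1.76. Wfdc2, a secreted WAP domain protein, led them with a log2 fold of -3.32 (SE 1.27), but it was listed at 0 in control 1 and its exact permutation p was 0.0635. Enpp2 (autotaxin), which makes lysophosphatidic acid, measured 68.6, 668, 899 and 624 FPKM in control mice 1 to 4 and 51.4, 47.4, 40.6, 39.9 and 76.3 in Hdac1 cKO mice 1 to 5. Control 1 lay between Hdac1 cKO 5 and the other 4 Hdac1 cKO mice, and the log2 fold was -2.99 (SE 0.76). Sostdc1, an antagonist of BMP and Wnt signals, changed by -2.58, the lipopolysaccharide binding protein Lbp by -2.20 and coagulation factor F5 by -1.92. Kl (Klotho, the co-receptor of FGF23) changed by -1.81, the collagen chain Col8a1 by -1.79 and Igfbp2, which binds insulin-like growth factors, by -1.76. Igfbp2 separated the groups, at 8.73 to 38.7 FPKM in control and 5.26 to 8.12 in Hdac1 cKO mice.

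The enzymes and transcription factors followed the same pattern. Rdh5, a retinol dehydrogenase, had 5.51 to 48.0 FPKM in control and 0.622 to 5.18 in Hdac1 cKO mice (log2 fold -3.20, SE 0.69), and it overlaps Bloc1s1 on the same strand. Sulf1, which trims heparan sulfate outside the cell, had a mean of 7.15 FPKM in control mice, none below 0.993, against 0.317 to 0.814 in Hdac1 cKO mice (-2.10, SE 0.46). Neither gene's groups overlapped. Steap1, of a family of metalloreductases (-2.70), and Ace, the angiotensin converting enzyme (-1.75), were lower with overlapping groups. Otx2 measured 1.26, 18.5, 21.6 and 22.2 FPKM in control mice 1 to 4 and 0.105, 0.393, 0.352, 0.0844 and 1.94 in Hdac1 cKO mice 1 to 5 (-3.08, SE 0.74), so that only Hdac1 cKO 5 overlapped the controls. The homeobox factor Msx1 changed by -1.29, the calmodulin-like Calml4 by -3.37, Tmem72 by -2.21, Wdr86 by -1.93 and the scaffold protein Cab39l by -1.06.

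In 5XFAD against control mice 1 of the 35 genes tested was called lower, where 1.23% of the 14402 genes tested were called lower. This was the copper importer Slc31a1, at 3.81, 8.78, 16.3 and 8.92 FPKM in control mice 1 to 4 and 3.83 to 6.33 (median 4.87) in 5XFAD mice, a log2 fold of -0.67 (SE 0.28; limma adjusted p = 0.418). The control range enclosed that of the 5XFAD mice, because control 1 was the lowest of the 10. The median log2 fold of the list was -1.06 (-1.69 without control 1), against -0.0088 over all genes, and no gene reached an exact permutation p under 0.05 (the lowest was 0.0905 over 210 arrangements). Without control 1 the count rose from 1 to 30, and without 5XFAD 2 or 5XFAD 6 it was 4. It was 0 without any 1 of control 2, 3 or 4 or of 5XFAD 1, 4 or 5.

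In compound against control mice 21 of the 35 genes were called lower, where 2.02% of 14348 genes were, with a median log2 fold of -1.61 (-2.63 without control 1 and compound 1) against -0.0072 over all genes. None had a limma adjusted p under 0.05 (the lowest was 0.228), and 9 of the 37 had an exact permutation p under 0.05. Among the 35 tested it was 8, where 9.7% of all genes tested had such a p in either direction. Aqp1, Cldn1 and Slc39a4 were among the 21, but their compound means were under 0.5 FPKM, so they passed the filter through the control mice alone. The count of 21 rested on single mice on both sides. It was 35 without compound 1 and 34 without control 1, but 3 without control 3, 5 without control 2 or control 4, 8 without compound 2, and 9 without compound 3, 4 or 5. Folr1 was 44.3, 0.537, 0.368, 0.868 and 1.03 FPKM in compound mice 1 to 5, and compound 1 alone lay within the control range (log2 fold -3.76, SE 1.36). Prlr (-2.73, SE 0.92) and Cldn2 (-1.98, SE 0.57) were among the genes called.

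Compound against 5XFAD mice, a comparison that does not use the control mice, had a median log2 fold of -0.70 over the list (-1.07 without compound 1). Of the 35 genes 2 were called, both lower, where 1.28% of 14326 genes were called in either direction. Ace had 1.65, 1.12, 0.139, 0.655 and 0.516 FPKM in compound mice 1 to 5 and 0.679 to 3.51 (median 1.71) in 5XFAD mice (log2 fold -0.70, SE 0.29; limma adjusted p = 0.734). Slc39a4 had 0.954, 0.733, 0, 0.339 and 0.373 FPKM against 0.197 to 2.95 (median 1.32), a log2 fold of -0.67 (SE 0.30; limma adjusted p = 0.738). Its compound mean was under 0.5 FPKM, so it passed the filter through the 5XFAD mice alone. Both pairs of groups overlapped, and the calls were lost or multiplied by single mice. The count was 24 without compound 1, 4 without 5XFAD 5, 5 without 5XFAD 4, 1 without 5XFAD 1, and 0 without 5XFAD 2, 3 or 6 or without compound 3, 4 or 5.

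The difference between the effect of Hdac1 loss in 5XFAD mice and its effect in mice without 5XFAD was tested as an interaction. It was above 0, a smaller drop in the 5XFAD background, for all 35 genes, with a median of 1.37 on the log2 scale against 0.0067 over all genes. An unadjusted p under 0.05 was reached by 7 genes (Cldn2, Lbp, Cab39l, Sulf1, Col8a1, Slc31a1 and Slc2a12), where 8.97% of 14389 genes reached it, and none had a limma adjusted p under 0.05 (the lowest was 0.427). Without control 1 the count was 31, and without 5XFAD 6 it was 15. It was 2 without any 1 of control 2, 3 or 4 or compound 1, 3 without 5XFAD 4, 5XFAD 5 or Hdac1 cKO 3, and 4 without Hdac1 cKO 4.

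The next question was how closely each gene followed Ttr from mouse to mouse once the group means were removed. In a fit over the 20 mice with group terms, 34 genes besides Ttr were tested, and 30 had a positive slope on log2(Ttr FPKM + 1) with a limma adjusted p under 0.05, where 0.626% of the 14388 genes tested did (90 genes). Their slopes ran from 0.14 to 0.75 with a median of 0.29, while the median slope of all genes was -0.00019. A slope of 0.75 means that the gene rose by 0.75 log2 units for each log2 unit of Ttr. The log2(FPKM + 1) scale understates slopes and folds of genes with low FPKM.

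Kcnj13 had the steepest slope, 0.75 (SE 0.03; limma adjusted p = 6.29e-12), and Wfdc2 (0.67), Folr1 (0.65), Steap1 (0.52), Kcne2 (0.52) and Otx2 (0.48) followed. All 5 channels, both receptors tested, the 8 secreted and membrane-bound regulators, the 4 enzymes, both transcription factors and the 4 other genes followed Ttr. The 4 genes that did not reach the threshold were 3 of the 7 transporters and 1 of the 2 claudins. They were Slc31a1 (0.12, SE 0.03, limma adjusted p = 0.0763), Slc39a4 (0.16, SE 0.04, limma adjusted p = 0.0844), Cldn1 (0.05, SE 0.04, limma adjusted p = 0.798) and Slc12a4 (0.02, SE 0.03, limma adjusted p = 0.923).

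**Figure D2:**
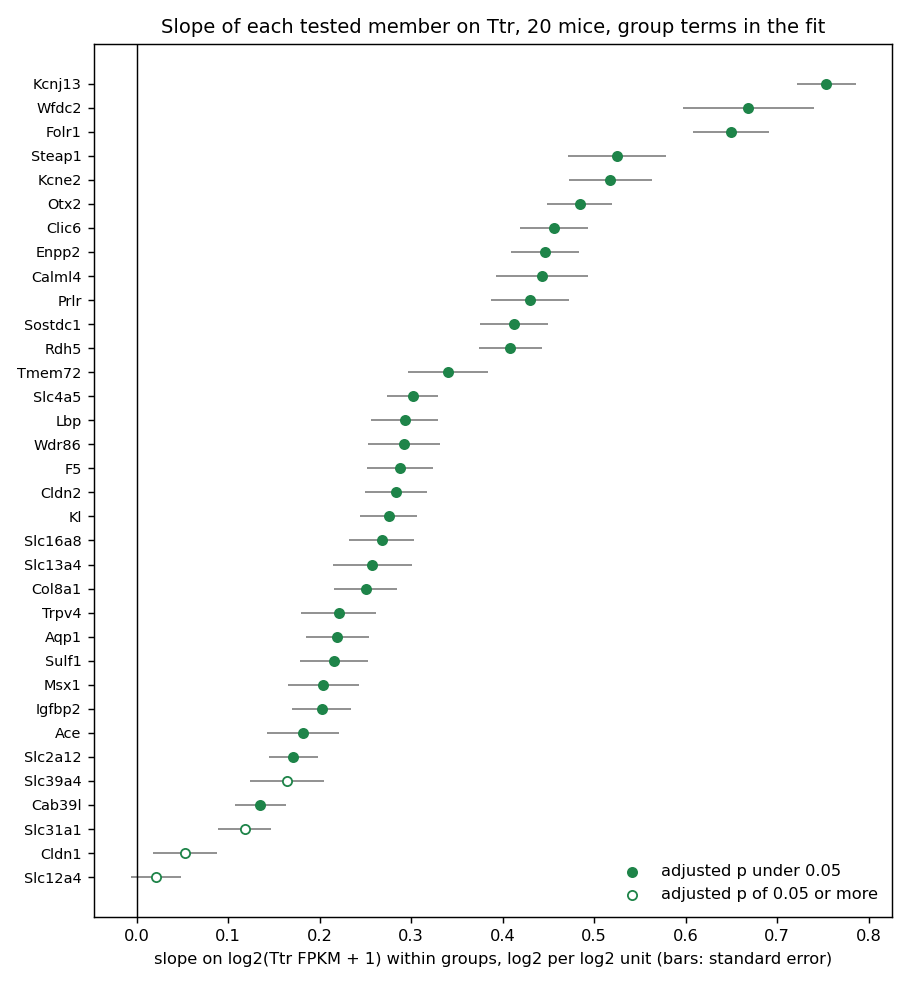
Slope of each of the 34 genes tested (points, with standard errors as bars) on log2(Ttr FPKM + 1) over 20 hippocampal mice with group terms in the fit, in log2 units per log2 unit of Ttr. Filled points, 30 of 34, had an adjusted p under 0.05, and the open points are Slc39a4, Slc31a1, Cldn1 and Slc12a4.

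The deviations from group means were also correlated. Pearson's r with Ttr ranged from 0.192 (Slc12a4) to 0.984 (Kcnj13) over the 34 genes, with a median of 0.883, against a median of -0.0022 over the 14388 genes. Of the 19 genes with an r of 0.9 or more, 14 belonged to the list, and so did 24 of the 50 and 30 of the 100 genes with the highest r. Adjusted over all genes, 26 of the 34 had a permutation p under 0.05 for Pearson's r and 22 for Spearman's rho (100000 permutations within groups, smallest p 1e-05), where 0.382% and 0.361% of all genes tested did. Kcnj13 ranked 1st of all genes (r = 0.984, rho = 0.969, adjusted permutation p = 0.0166), Folr1 2nd (r = 0.966, rho = 0.929) and Otx2 3rd (r = 0.957, rho = 0.944). Cldn1 had r = 0.352 and rho = 0.292 (adjusted permutation p = 0.851), and Slc12a4 had r = 0.192 and rho = 0.0496 (adjusted permutation p = 0.947).

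Within groups the Ttr values of control, Hdac1 cKO and compound mice rest largely on the mouse that stood apart, so the relation was recomputed without control 1, Hdac1 cKO 5 and compound 1. The median r over the 34 genes was then 0.834, and 20 of the 34 kept a slope with an adjusted p under 0.05. All 20 were among the 30, and the 10 that lost it were Ace, Aqp1, Cab39l, Igfbp2, Msx1, Slc13a4, Slc16a8, Slc2a12, Sulf1 and Trpv4. For Kcnj13 r was 0.966 without these 3 mice and for Slc12a4 it was -0.179. Without the 2 mice farthest from the median Ttr (control 2 and control 3) the median r was 0.895, and over the 6 5XFAD mice alone it was 0.911.

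**Figure D3:**
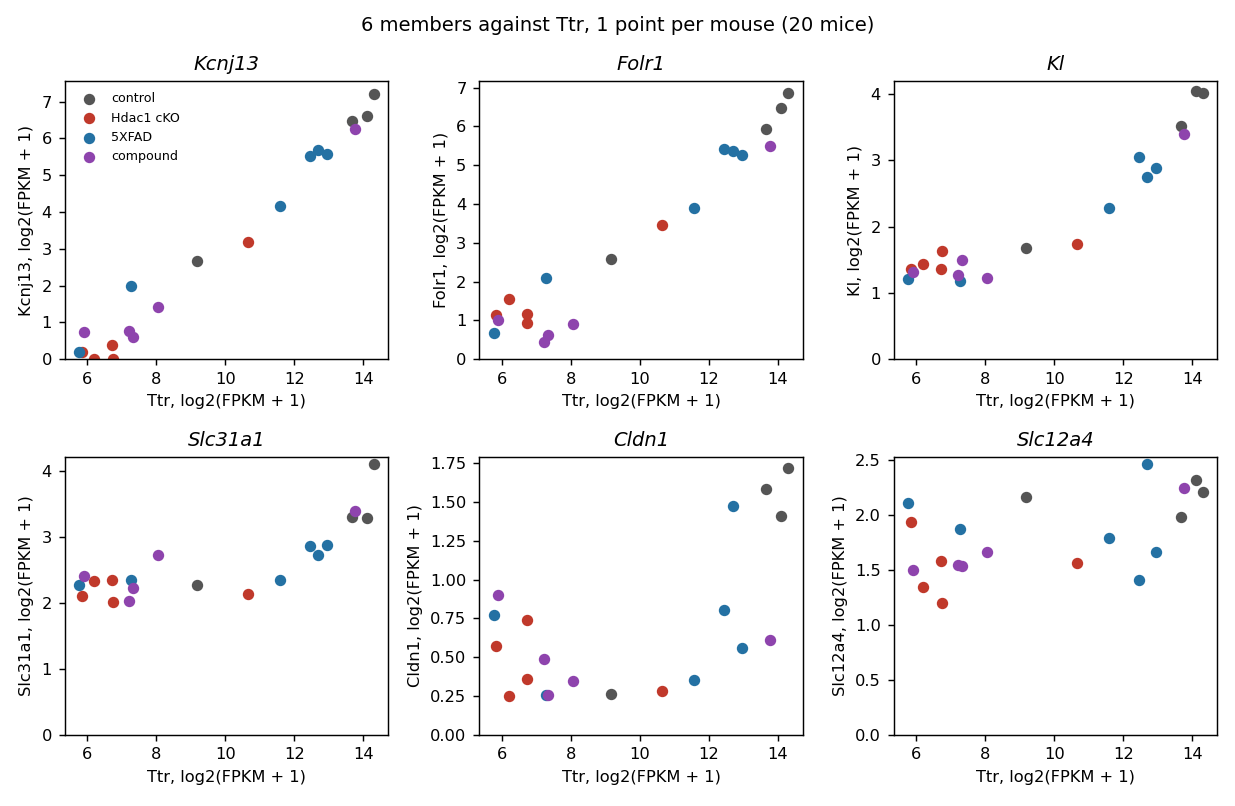
Log2(FPKM + 1) of 6 genes (vertical axes) against log2(Ttr FPKM + 1) (horizontal axes), 1 point per mouse over 20 mice, coloured by group. Kcnj13, Folr1 and Kl rise with Ttr (slopes of 0.75, 0.65 and 0.28), Slc31a1 rises less (0.12), and Cldn1 (0.05) and Slc12a4 (0.02) have the smallest slopes.

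On the linear scale most of the genes were close to proportional to Ttr. A straight line of FPKM on Ttr FPKM was fitted over the 20 mice without group terms, as a description. Differences between groups therefore enter it, unlike the slopes and correlations above. Its R squared lay between 0.361 (Slc12a4) and 0.979 (Kcne2) for the 36 genes, with a median of 0.924. The level fitted at a Ttr of 0, as a percentage of the level fitted at the highest Ttr, had a median of 4.00% and was under 5% for 22 of the 36 genes. It was 0.126% for Kcnj13, 1.00% for Folr1 and 2.09% for Otx2. The genes that kept a larger part of their level were Slc12a4 (56.6%), Cab39l (29.5%), Slc31a1 (just under Cab39l), Igfbp2 (19.1%), Cldn1 (18.5%), Slc2a12 (12.5%) and Sulf1 (10.5%). Kl kept 9.73%, a fitted 1.52 FPKM (SE 0.222), and its lowest mouse was at 1.26 FPKM.

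**Figure D4:**
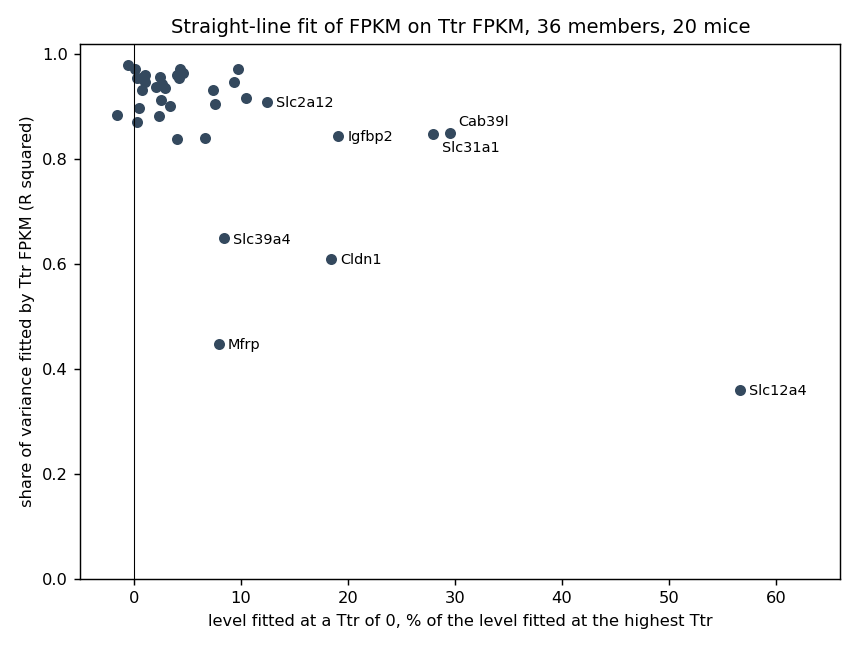
For each of 36 genes (points), the level that a straight-line fit over 20 mice gives at a Ttr of 0, in percent of the level at the highest Ttr (horizontal axis), against the R squared of that fit (vertical axis). Most genes lie at the upper left, and Slc12a4 stands alone at 56.6% and an R squared of 0.361. The fit had no group terms.

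Differences between groups were then refitted over the 20 mice with log2(Ttr FPKM + 1) as a covariate, over the 34 genes other than Ttr. For Hdac1 cKO against control the median log2 fold over these 34 genes was -1.97 in the fit over the same 20 mice without the covariate and -0.39 with it, and 5 genes were called lower, Rdh5 (-0.93), Sulf1 (-0.90), Cldn2 (-0.80), Kcnj13 (-0.79) and Igfbp2 (-0.63), where 1.21% of 14388 genes were called lower in the same fit. Slc12a4 lost its call with a fold that changed little, from -0.65 to -0.53 (SE 0.25), under the 1.5-fold limit. For compound against control the median was -0.39 and 5 genes were called, Folr1 (-0.93), Prlr (-0.86), Cldn2 (-0.75), Igfbp2 (-0.69) and Rdh5 (-0.65), where 1.43% of all genes were. For 5XFAD against control the median was -0.31 and 2 genes were called, Prlr (-0.76) and Cldn2 (-0.62), where 0.994% of all genes were. Between compound and 5XFAD mice the median was -0.68 without the covariate and -0.07 with it, and 21 of the 34 genes were then below 0. Folr1 alone was called in that comparison (-0.79), where 1.45% of all genes were called in either direction. None of these genes had a limma adjusted p under 0.05. With Ttr in the fit Wfdc2 and Steap1 were on the other side of 0 in Hdac1 cKO mice (0.41 and 0.22), with standard errors of 0.66 and 0.50.

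**Figure D5:**
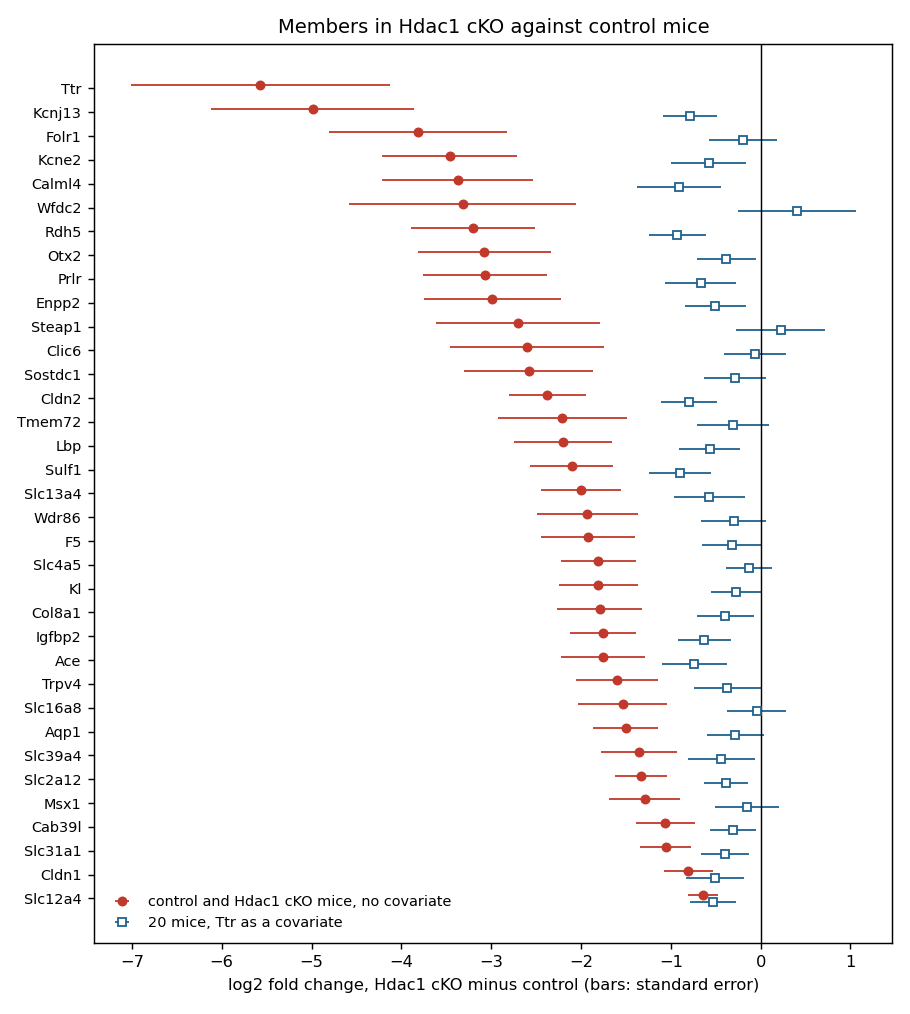
Log2 fold change of Hdac1 cKO against control mice for the 35 genes tested, with standard errors as bars, without a covariate (filled circles, 9 mice) and with Ttr as a covariate over 20 mice (open squares). All 35 circles lie below 0, from -5.57 to -0.65, and the squares lie closer to 0, with Wfdc2 and Steap1 above it.

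Compound 1 (13910 FPKM) and control 4 (12903 FPKM) happened to have near-equal Ttr at a high level. The other 36 genes were compared between them as a description of 1 mouse each. Other pairs from different groups had near-equal Ttr at low levels, such as 5XFAD 4 (153 FPKM) and compound 2 (160 FPKM). Those pairs were not compared. The ratio of compound 1 to control 4 had a median of 0.804 and was below 1 for 27 of the 36 genes, where over 13882 genes the median ratio was 1.00 and 49.8% were below 1. It was below 0.5 for 5 genes, Slc39a4 (0.220), Cldn1 (0.265), Ace (0.398), Prlr (0.455) and Cldn2 (0.456). Mfrp, Steap1, Abca4, Kcne2, Slc12a4, Msx1, Sostdc1, Trpv4 and Slc31a1 were above 1, up to 1.54.

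Genes outside the list that followed Ttr most closely are named for comparison. The 10 with the highest r were Defb11 (0.950), 1500015O10Rik (0.950), Prr32 (0.910), Krt18 (0.903), Cdkn1c (0.901), Trpm3 (0.895), Cox8b (0.885), St6galnac2 (0.883), Cgnl1 (0.873) and Ctnnal1 (0.872). A second list of 32 choroid plexus genes was drawn from general knowledge, but with earlier results of these data known. Of these, 31 had values and 28 were tested. Among the 10 genes above, 1500015O10Rik, Krt18 and Trpm3 also belong to this second list and are counted again in it. In Hdac1 cKO against control mice 14 of the 28 were called lower and none was called higher (2.87% of all genes were called lower). In 5XFAD mice 4 were called lower (Car12, Slco1c1, Cldn3 and Htr2c; 1.23% of all genes) and in compound mice 7 (2.02% of all genes). A positive slope on Ttr with an adjusted p under 0.05 was found for 10 of the 28 (0.626% of all genes). Among them were the keratins Krt8 (slope 0.21) and Krt18 (0.43), the sodium potassium chloride cotransporter Slc12a2 (0.12), the anion exchanger Slc4a2 (0.19) and the carbonic anhydrase Car12 (0.15). Among those that did not pass, named here after their values were seen, the peptide transporter Slc15a2 had a Pearson's r with Ttr of -0.129 and a rho of -0.168 (permutation adjusted p = 0.963 and 0.966). The tight junction protein Tjp1 had an r of 0.238 and a rho of 0.174 (permutation adjusted p = 0.913 and 0.965).

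Markers of other cells next to the ventricle moved with part of these results. Of 8 markers of ependyma, the ciliated lining of the ventricles, 7 were called lower in Hdac1 cKO, 3 in 5XFAD and 3 in compound mice against control, where 2.87%, 1.23% and 2.02% of all genes were called lower. Their summed level was 189 to 410 FPKM in control, 125 to 159 in Hdac1 cKO, 129 to 218 in 5XFAD and 137 to 252 in compound mice, and none was at 0 throughout a group. None of the 8 followed Ttr within groups at an adjusted p under 0.05 (median r 0.551). Of 7 tested markers of meningeal and stromal fibroblasts, all 7 had a log2 fold below 0 in Hdac1 cKO mice (median -0.34) and 2 were called lower (Slc6a13 and Igf2). Igf2 alone of them followed Ttr at an adjusted p under 0.05, and Igf2 is also counted in the second choroid plexus list. In compound against control mice Slc6a13 and Ogn were called lower, and in 5XFAD mice none was. Over all 9 markers of this list, tested or not, the sums were 72.4 to 140 FPKM in control and 50.2 to 76.0 in Hdac1 cKO mice. These sums include Igf2, which alone measured 5.45, 43.8, 53.3 and 33.8 FPKM in control mice 1 to 4. In Hdac1 cKO mice Igf2 was 4.24 to 9.31 FPKM. The markers of endothelium, thalamus, hippocampal neurons, neurons, astrocytes, microglia and oligodendrocytes had no call in Hdac1 cKO against control mice and no slope on Ttr with an adjusted p under 0.05, with median slopes by list from -0.02 (microglia) to 0.04 (thalamus). Their median log2 folds in Hdac1 cKO mice ran from -0.41 (thalamus) to 0.19 (microglia). In 5XFAD and in compound mice against control, the microglial genes Cx3cr1, Csf1r and C1qa and the astrocyte gene Gfap were called higher. In compound mice the astrocyte water channel Aqp4 was also called higher and the endothelial Pecam1 lower. Neuron markers summed to 1243 to 1455 FPKM in control and 1290 to 1520 in Hdac1 cKO mice. The sum of the 36 genes without Ttr was 145 to 1884 FPKM in control, 77.6 to 176 in Hdac1 cKO, 89.0 to 713 in 5XFAD and 82.7 to 885 in compound mice. The part of ependymal and stromal tissue in the results was not tested.

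In the GFAP+ cortical nuclei, a different tissue and library kind that was tested on its own, Hdac1 was 9.91 to 22.3 FPKM in control and 5.80 to 11.5 in Hdac1 cKO samples, so that the labelled groups overlapped in the targeted gene (two-sided exact permutation p = 0.114). Of the list, 26 of the 37 genes passed the filter and 3 were called, all higher in Hdac1 cKO, where 2.58% of 15070 genes were called in either direction. Folr1, 1 of the 3, had a control mean under 0.5 FPKM and so passed the filter through the Hdac1 cKO samples alone, as did Kcne2 and Steap1, which were not called. Ttr was 10.7, 6.40 and 131 FPKM in control samples 1, 3 and 4 and 162, 95.9, 246 and 200 in Hdac1 cKO samples 1 to 4, overlapping groups with a log2 fold of 2.89 (SE 1.11; two-sided exact permutation p = 0.0571). Folr1 was 0, 0.204 and 0.381 against 0.798, 1.72, 1.49 and 1.85 FPKM (log2 fold 1.04, SE 0.27), and Calml4 was 0.472, 0.872 and 0.213 against 1.92, 3.64, 2.95 and 2.64 FPKM (1.32, SE 0.27). Neither of these overlapped, and both had an exact permutation p of 0.0286, the smallest that 35 arrangements allow. None of the 26 had a limma adjusted p under 0.05 (the lowest was 0.978). Igfbp2 (64.7 to 124 FPKM), Slc12a4 (34.6 to 46.1 FPKM), Enpp2 (34.0 to 74.9 FPKM) and Rdh5 (15.6 to 24.3 FPKM) were present in all 7 nuclear samples without a call. So were close followers of Ttr in the hippocampus, Kcnj13 (1.70 to 15.4 FPKM), Otx2 (1.63 to 7.41 FPKM) and Clic6 (1.09 to 4.55 FPKM). The median log2 fold of the 26 genes was 0.18, with 7 below 0, and their relation to Ttr in the nuclei was not tested.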

How the data were processed

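Hippocampal 3′ Digital Gene Expression libraries of 20 mice and SMART-Seq v4 libraries of GFAP+ cortical nuclei of 7 mice were analysed, 27 of the 34 samples listed. The remaining 7 (GFAP+ control 2 and 6 ChIP-seq libraries) were not used here. Alignment by the authors was with TopHat2, and the deposited files hold FPKM values per gene made with Cufflinks 2.0.0 and the UCSC annotation of mm9. No fragment counts were given, so no count model was used. Groups were taken from the sample labels, age from the labels and sex from the study's methods.

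FPKM values were transformed to log2(FPKM + 1). Genes averaging 0.5 FPKM or more in the mice compared were tested with limma 3.58.1 (R 4.3.3; trend and robust moderation), with the 2 groups compared in each fit. A call required a fold of 1.5 and an unadjusted p under 0.05, and Benjamini-Hochberg adjusted p-values over all genes tested are given beside it. Slopes on Ttr and interactions were fitted over 20 mice. Exact permutation tests of single genes were two-sided and permuted mice, and correlations used 100000 permutations within groups (Python 3.11.15, numpy 2.4.6, scipy 1.17.1, pandas 2.3.3). The fits and correlations were tested on simulated data.

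The 37 genes and all marker lists were chosen with earlier results of these data known. All 37 are accounted for. Also named are Hdac1 as a check of the labels, the 10 genes outside the list with the highest r to Ttr, and genes of the second list. Positions of genes are those of NCBIM37 (mm9), and promoter windows are RefSeq's for GRCm38.p6 with no conversion between builds. Alternatives were another pseudocount (0.1), no filter or one at 1 FPKM, quantile normalization, limma without trend and robust options, all 4 groups in one fit, Ttr as a covariate, a mean of 5 other genes as the reference in place of Ttr, no group terms, a replicate block, an adjusted p as the call and each mouse left out. Leaving out control 1, Hdac1 cKO 5 and compound 1 together was added after seeing the data.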

Additional observations from a re-analysis of the deposited data

Results flagged for a closer look

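Within groups of 4 to 6 mice, the log2(FPKM + 1) of each of the 37 genes was checked for a lowest or highest mouse whose gap to the next exceeded Dixon's 95% critical value. This was so for 50 of 185 combinations of gene and group, where chance alone gives about 1 in 20. Compound 1 was the high mouse for 23 genes, Hdac1 cKO 5 the high mouse for 11 and control 1 the low mouse for 10. Among the GFAP+ nuclei of Hdac1 cKO mice, sample 4 was high for 2 genes (Rdh5 at 24.3 FPKM and Slc39a4 at 0.0561 FPKM), sample 1 for 1 gene (Wfdc2 at 1.09 FPKM) and sample 2 for 1 gene (Cldn1 at 0.0834 FPKM). 5XFAD 5 was low for 1 gene (Cab39l at 5.55 FPKM) and Hdac1 cKO 4 was high for 1 gene (Mfrp at 0.0555 FPKM).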

How the results depend on the processing

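All 35 genes stayed lower in Hdac1 cKO than in control mice in each alternative without Ttr in the fit, and 33 to 35 were called when 1 mouse was left out. With Ttr as a covariate 5 were called, and Wfdc2 and Steap1 turned to 0.41 and 0.22. In that fit Wfdc2 was also above 0 for 5XFAD against control (0.55) and Steap1 for compound against control (0.26). For compound against 5XFAD, where all 35 genes were below 0 without the covariate, 21 of the 34 genes were below 0 with it. With an adjusted p under 0.05 as the call the count was 0 for each of the 4 hippocampal comparisons.

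For 5XFAD against control (1 gene) the count was 2 with the Ttr covariate, without trend and robust options or with quantile normalization, 7 with all 4 groups in one fit, and 0 to 30 without 1 mouse. For compound against control (21 genes) it was 5 with the covariate, 33 with all 4 groups in one fit and 3 to 35 without 1 mouse. For compound against 5XFAD (2 genes) it was 1 with the covariate, all 4 groups or a pseudocount of 0.1, and 0 to 24 without 1 mouse. Without control 1, Hdac1 cKO 5 and compound 1 together, a choice made after seeing the data, the counts were 35 for Hdac1 cKO, 30 for 5XFAD and 35 for compound mice. Genes following Ttr numbered 24 to 31 without 1 mouse, 33 with 5 other genes as the reference and 32 without group terms. The interaction count was 2 to 31 and that of the GFAP+ nuclei 2 to 3 without 1 mouse. The cause of these shifts was not tested.

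Mice with the same replicate number did not deviate together (r from -0.113 to 0.0938 over 27 pairs), so the numbers do not pair the mice. With a replicate block the counts were 34 for Hdac1 cKO, 7 for 5XFAD, 1 for compound, 0 for compound against 5XFAD and 29 for genes following Ttr. FPKM without counts limits what low values can show.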
